A study of Mus musculus with 22 samples.

Results

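Entinostat given alone was compared with vehicle in G-MDSCs, the granulocytic kind of myeloid-derived suppressor cell, taken from mouse mammary tumours. All samples carrying the label of entinostat alone (4 samples) were set against all vehicle samples (6 samples), so that 10 of the 22 samples of the study entered the comparison, and all 655 endogenous genes of the panel were considered. Every animal was a female FVB-Neu-N mouse, a strain that carries the rat neu oncogene under a mammary promoter, and was 7 to 8 weeks old when 50000 NT2.5 mammary tumour cells were placed in its mammary fat pad. Entinostat was suspended in 0.5% methylcellulose and given daily by mouth at 5 mg/kg for 3 weeks, starting 3 days after implantation. Vehicle animals received methylcellulose and isotype antibodies. Whether the entinostat-only animals also received isotype antibodies, and whether an anti-HER2 antibody was given to either group, is not given in the sources used here. In the remaining samples entinostat was combined with anti-PD-1 (4), with anti-CTLA-4 (4) or with both, called the triple combination (4). The purpose stated for the study was to look for transcript changes behind an altered function of these cells.

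Entinostat inhibits class I histone deacetylases, the enzymes that take acetyl groups off histone tails, and such inhibition raises histone acetylation and shifts the transcription of many genes in both directions. G-MDSCs resemble neutrophils, express calprotectin, CXC chemokine receptors and the G-CSF receptor, and accumulate in mammary tumours, where they can restrain T cells. Their inflammatory output is controlled largely by NF-kB and by the receptors for interleukin 1, Toll-like receptor ligands and cytokines that signal through JAK and STAT proteins.

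Values are normalized counts on the NanoString system, which counts fluorescent barcodes bound to each transcript. Recovered barcode counts per sample ran from 107446 to 162080 after entinostat and from 127353 to 247892 in vehicle, and 1 barcode count was worth 1.77 to 2.32 normalized counts after entinostat and 0.776 to 1.72 in vehicle. On the normalized scale the negative control probes averaged 7.31 to 16.5 in entinostat samples and 4.66 to 7.04 in vehicle samples. The housekeeping genes had a geometric mean of 172 to 182 after entinostat and 174 to 185 in vehicle, while the median endogenous gene stood at 47.2 to 67.8 and at 27.5 to 51.7 normalized counts. The column names carry 2 stamps of a date and a number, read here as 2 cartridges, a word that neither labels nor headers use. Cartridge 1, with the earlier date, held all entinostat samples and vehicle samples 1, 2 and 4. Cartridge 2, with the later date, held vehicle samples 3, V1 and V2. Vehicle sample 2 stood apart from the other vehicle samples, since it was the highest of them for 196 of the 420 tested genes. By lane, vehicle sample 3 lay among triple combination samples and a triple combination sample among vehicle samples. The labels were kept, and without both samples 180 genes were called (168 higher and 12 lower). The p-values rest on the spread of samples within all 5 groups of the study, 22 samples in all. The labels do not tie samples to separate animals, so that spread may be technical. Cells were selected magnetically for Ly6G, but the transcript of that marker, Ly6g, was low, at 5.32, 30.2, 18.8 and 22.5 normalized counts after entinostat and 3.43 to 8.23 in vehicle, against a background limit of 29.3. The calprotectin genes S100a8 and S100a9 were among the most abundant transcripts in both groups.

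Genes with a mean above the background limit in 1 or more of the study's groups were tested, 420 in all. Fold changes are differences in log2(normalized count + 1), entinostat minus vehicle, with the standard error (SE), and a gene is called higher or lower when its limma Benjamini-Hochberg adjusted p, two-sided over the 420 genes, is under 0.05. Of the 420 genes, 168 were called, 40% of those tested. There were 152 genes higher (36.2%) and 16 lower (3.81%), with median log2 fold changes of 1.36 and -0.43. Of the higher genes 109 differed by over 2-fold and 12 by over 4-fold, while 0 of the lower genes differed by over 2-fold. Of the 420 genes, 352 were above the limit both after entinostat and in vehicle, and a test of these called 125 higher (35.5%) and 16 lower (4.55%), with a median log2 fold change of 0.35. The other 68 passed on 1 of these groups or on a combination group, and 27 of them were called higher and 0 lower. A gene that passes only where it is high has to differ, so the calls of these 27 genes, among them Selp, Sele, Il6, Ptprb, Il15, Tnfaip6, Fpr1, Camp, Itga5, Ccl7, Pik3cg, Btk and Ptger2, are a description only. In bulk RNA of this kind, fewer cells of a type and less RNA per cell cannot be told apart.

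The direction of the typical gene depended on the scaling. With the deposited scaling the median log2 fold change of the tested genes was 0.50, with 312 positive and 108 negative. It was -0.04 after centring each sample on its median, -0.13 after quantile normalization and -0.20 in a count test with TMM factors (edgeR). Median centring gave 95 higher and 81 lower calls, quantile normalization 88 higher and 87 lower and TMM 57 higher and 132 lower, beside 152 and 16 with the deposited scaling. Called in the same direction by all 4 scalings were 53 higher genes (12.6% of those tested) and all 16 lower genes (3.81%). Since each other scaling moved the median down, agreement of the scalings is a check for higher genes and not for lower ones. Of the 152 higher genes, 25 had a negative fold change under at least 1 scaling, and 0 of them were called lower. For the gene lists below, counts of higher genes under all 4 scalings are to be read against the 12.6%. Counts of higher genes above the limit in both groups are to be read against the 35.5% of all such genes.

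**Figure D1:**
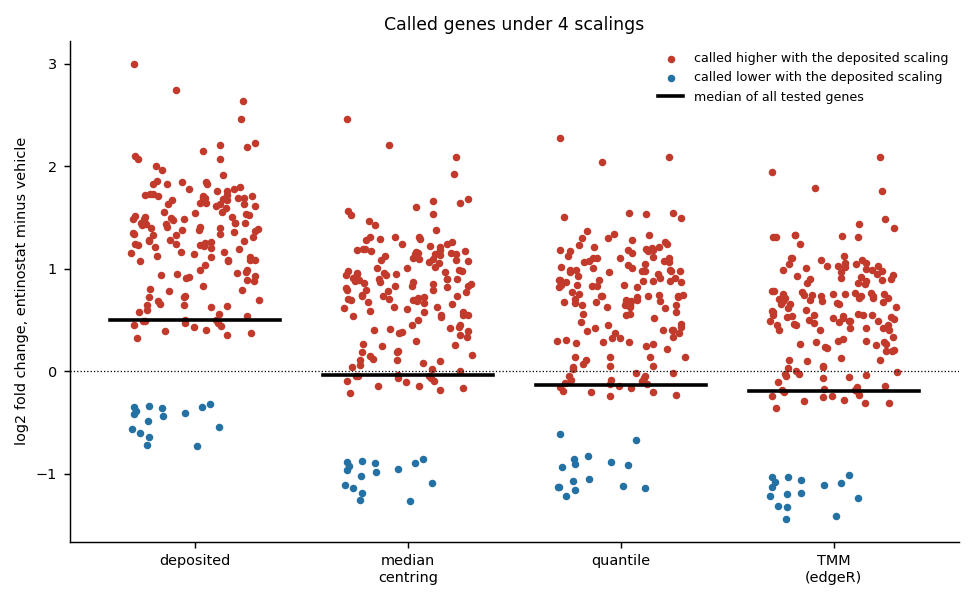
Log2 fold change, entinostat minus vehicle, of the 168 called genes under 4 scalings, with red points for the 152 called higher and blue points for the 16 called lower with the deposited scaling. The black bars mark the median of all 420 tested genes, at 0.50, -0.04, -0.13 and -0.20 from left to right; the blue points lie below 0 throughout.

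**Figure D2:**
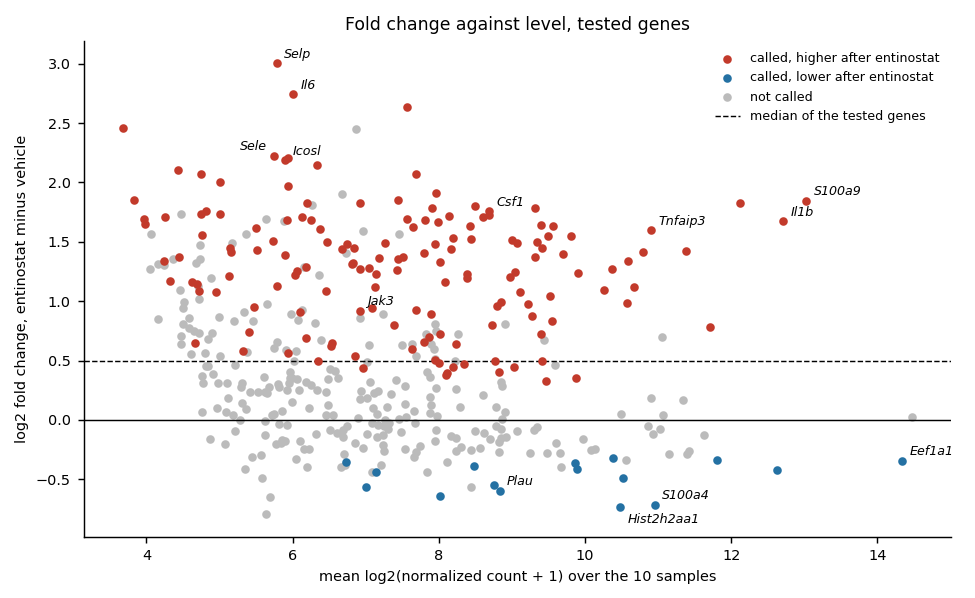
Log2 fold change of the 420 tested genes against their mean log2(normalized count + 1) over the 10 samples. Red points are the 152 genes called higher, blue points the 16 called lower and grey points the rest; the largest increases, such as Selp at 3.00, lie at low to middle levels, and the lower genes lie at middle to high levels.

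The samples of both groups did not overlap for 72 genes. All 4 entinostat samples lay above all 6 vehicle samples for 65 genes (15.5% of those tested), of which 56 were called, and below all of them for 7 genes (1.67%), all called. After median centring the split of the separated genes was 39 above and 23 below. Vehicle sample 2 set the upper edge of the vehicle range for 122 of the 152 higher genes. Over those genes its median log2 value lay 1.05 above the vehicle mean, against 1.20, 1.48, 1.61 and 0.99 for entinostat samples 1 to 4 and -0.55 to 0.37 for the other vehicle samples. Without vehicle sample 2 the calls numbered 207, with all 168 genes called again. Without entinostat sample 3 they numbered 80 and without entinostat sample 2 they numbered 98.

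The increases with the smallest p were those of Csf1, Il17ra, Jak3 and Icosl. Csf1, the growth factor of macrophages, measured 847, 949, 1114 and 603 normalized counts after entinostat, against 150 to 499.5 in vehicle with a median of 233. Every entinostat sample was above every vehicle sample, and the log2 fold change was 1.76 ± 0.29 (SE, limma adjusted p = 0.00174). Il17ra, the shared receptor chain for interleukin 17, measured 170.1, 248, 250.3 and 225 after entinostat and 91.4 to 146 in vehicle (median 94.5). Its groups did not overlap either, with a log2 fold change of 1.12 ± 0.18 (adjusted p = 0.00174). The vehicle range of Il17ra was narrow apart from vehicle sample 2, which held its upper end. Jak3, the kinase of receptors that use the common gamma chain, had 174, 188, 179 and 164 normalized counts after entinostat against 70 to 121 in vehicle (median 94.9), a log2 fold change of 0.92 ± 0.17 (adjusted p = 0.00305). Its entinostat samples were the most tightly grouped of these genes, although Jak3 was not called under every scaling. Icosl, the ligand of the T-cell co-stimulator ICOS, had 133, 165, 147 and 146 normalized counts after entinostat and 21.2 to 64.7 in vehicle (median 25.5). That is a log2 fold change of 2.19 ± 0.42 (adjusted p = 0.00396), with no overlap between the groups.

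Cxcr4, the CXCL12 receptor that helps to hold neutrophils in the bone marrow, stood at 1247, 1418, 1669 and 1079 normalized counts after entinostat, against 205 to 889.8 in vehicle (median 372). Btg2, a growth-restraining gene that responds to p53, stood at 1520.2, 1722, 1959 and 1299.6 against 460.4 to 1114 in vehicle (median 675). Both genes were separated between the groups, with log2 fold changes of 1.78 ± 0.36 and 1.24 ± 0.26 (adjusted p = 0.00558 for each). Il15, a cytokine that sustains NK and memory T cells, had 42.5, 78.9, 65.9 and 38.2 normalized counts after entinostat and 7.97 to 24.7 in vehicle (median 17.3), close to background. It too was separated, with a log2 fold change of 1.73 ± 0.41 (adjusted p = 0.00796). Olr1, the receptor for oxidized LDL that marks suppressive neutrophils in humans, measured 135, 172, 177 and 144 after entinostat against 28.3 to 97.6 in vehicle (median 36.6). Its log2 fold change was 1.82 ± 0.45 (adjusted p = 0.00851). Also separated and called in all 4 scalings were Il10ra (interleukin-10 receptor, 1.85 ± 0.43), Tnfaip6 (a hyaluronan-binding protein, 2.00 ± 0.57), Acod1 (the enzyme that makes itaconate, 1.91 ± 0.55), Slc16a6 (a member of the monocarboxylate transporter family, 1.69 ± 0.46) and Rhog (a small GTPase, 1.19 ± 0.28). All of these genes, from Csf1 to Rhog, kept their call when any 1 sample was left out.

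**Figure D3:**
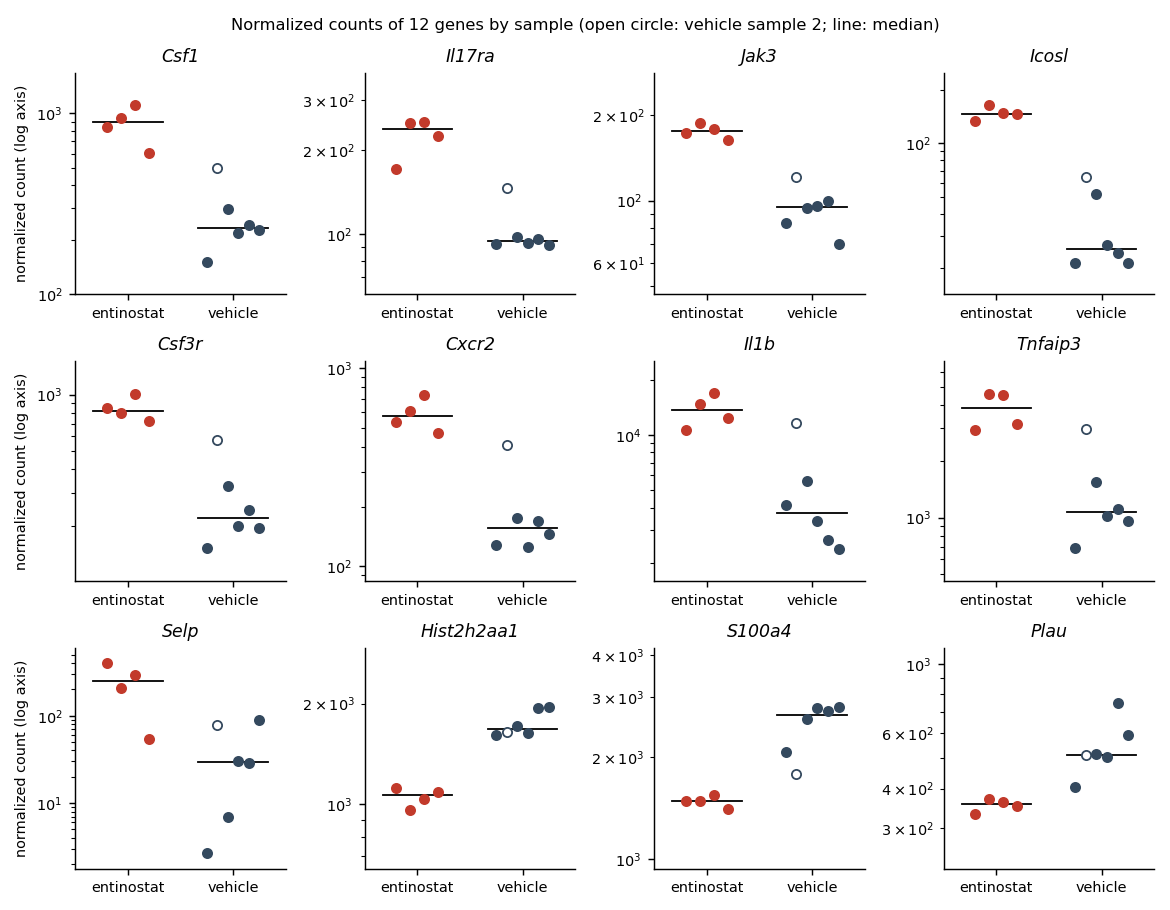
Normalized counts on log axes of 12 genes in the 4 entinostat samples (red) and the 6 vehicle samples (dark), with the open circle marking vehicle sample 2 and lines the medians. Csf1, Il17ra, Jak3, Icosl, Csf3r and Cxcr2 are above, and Hist2h2aa1, S100a4 and Plau below, every vehicle sample; Il1b, Tnfaip3 and Selp overlap.

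The largest increases called under all 4 scalings were those of Selp, Il6 and Sele, and their promoters are shown for that reason. Selp encodes P-selectin of platelets and endothelium, Sele encodes E-selectin of activated endothelium, and Il6 encodes the cytokine interleukin 6. The sequences run from 250 bases before to 50 bases after the start of the gene (RefSeq, mouse build GRCm38.p6, plus strand), at chr1:164115014-164115313 for Selp, chr5:30012864-30013163 for Il6 and chr1:164047984-164048283 for Sele. Capitals mark matches on either strand to an NF-kB motif (GGGANNNNCC, where N stands for any of the bases), to an AP-1 motif (TGANTCA), to the core of the TATA box (TATAAA) and to the core of the CCAAT box, which is CCAAT itself.

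Selp: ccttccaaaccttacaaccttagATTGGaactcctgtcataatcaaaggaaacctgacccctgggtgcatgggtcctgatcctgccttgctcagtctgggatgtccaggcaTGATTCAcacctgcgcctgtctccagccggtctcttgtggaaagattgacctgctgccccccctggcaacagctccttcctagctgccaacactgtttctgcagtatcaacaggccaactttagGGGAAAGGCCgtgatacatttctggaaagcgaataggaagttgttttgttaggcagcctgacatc
Il6: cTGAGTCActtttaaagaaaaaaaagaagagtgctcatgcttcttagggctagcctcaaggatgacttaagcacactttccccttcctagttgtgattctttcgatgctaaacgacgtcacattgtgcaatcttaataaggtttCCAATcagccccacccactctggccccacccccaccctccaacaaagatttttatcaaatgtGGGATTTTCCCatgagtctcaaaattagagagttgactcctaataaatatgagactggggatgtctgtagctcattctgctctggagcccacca
Sele: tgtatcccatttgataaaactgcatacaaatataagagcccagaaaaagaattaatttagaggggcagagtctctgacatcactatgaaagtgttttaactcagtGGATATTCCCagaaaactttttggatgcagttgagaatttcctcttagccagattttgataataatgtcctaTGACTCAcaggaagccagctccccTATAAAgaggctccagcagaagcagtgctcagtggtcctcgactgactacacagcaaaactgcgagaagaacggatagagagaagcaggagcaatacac

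In Selp the NF-kB match starts at position -15 relative to the gene start, the AP-1 match at -139 and the CCAAT match at -227. In Il6 there are 2 overlapping NF-kB matches at -44 and -43, an AP-1 match at -249 and a CCAAT match at -106. In Sele the NF-kB match starts at -145, the AP-1 match at -73 and TATAAA at -49. Each of the 3 windows held an NF-kB and an AP-1 match, found in 32.7% and 7.47% of the windows of tested genes. Over the windows of all higher genes the shares were 31.2% and 11.04%. These 3 genes were picked for their fold change, so their windows are a description only.

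Selp had 399, 209, 294 and 54 normalized counts after entinostat, against 2.66 to 88.3 in vehicle (median 29.5). The groups overlapped through entinostat sample 4, and the log2 fold change was 3.00 ± 0.95 (adjusted p = 0.02). Il6 had 384, 214, 410.3 and 47.2 normalized counts after entinostat against 4.43 to 118 in vehicle (median 22.2), a log2 fold change of 2.74 ± 0.89 (adjusted p = 0.0218). Again entinostat sample 4 lay inside the vehicle range. Sele had 182, 123, 215 and 67.5 normalized counts after entinostat against 9.74 to 72.9 in vehicle (median 31), a log2 fold change of 2.22 ± 0.66 (adjusted p = 0.0161). The call was lost for Selp when entinostat sample 1, 2 or 3 was left out (adjusted p up to 0.063), for Il6 when entinostat sample 1, 2 or 3 or vehicle sample 1 was (up to 0.0781), and for Sele when entinostat sample 3 was (0.06).

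Entinostat sample 4 was the lowest entinostat sample for 106 of the 152 higher genes and for 213 of the 420 tested. It was low in each of 4 further called genes. Ptprb, the endothelial receptor phosphatase, had 83.3, 55.7, 77.2 and 18 normalized counts after entinostat and 3.54 to 39.6 in vehicle (median 7.39). Gem, a GTPase that inhibits calcium channels, had 230.3, 216, 259.7 and 40.5 against 8.85 to 109 in vehicle (median 32.9). Cav1, the main protein of caveolae, and Col3a1, a fibrillar collagen, were lowest in entinostat sample 4 as well, at 124 and 153 normalized counts against 311 to 335 and 369 to 612 in entinostat samples 1 to 3. In vehicle Cav1 ran from 42.5 to 239.8 and Col3a1 from 57.2 to 368. All of these genes were called higher, Ptprb by 2.11 ± 0.69, Gem by 2.20 ± 0.77, Cav1 by 1.36 ± 0.51 and Col3a1 by 1.70 ± 0.63 (adjusted p = 0.0219, 0.0304, 0.0391 and 0.039), and each lost its call in at least 4 of the 10 fits that left out a sample. The summed level of 7 endothelial markers was 1031, 673, 917 and 256 after entinostat and 112 to 472 in vehicle, and that list includes Selp, Sele and Ptprb themselves. Of its members that were not called, Cdh5, the cadherin of endothelial junctions, had 86.8, 104, 90.3 and 22.5 normalized counts after entinostat against 7.08 to 71.7 in vehicle. Angpt2, an antagonist of the TIE2 receptor, had 70.9, 51.1, 88.5 and 15.7 against 8.85 to 38.8, and Flt1, a VEGF receptor, had 184, 111, 143 and 76.5 against 77 to 203. The groups overlapped for all 3 genes. The part of endothelial RNA in the increases was not tested.

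With the deposited scaling all 16 lower genes fell by less than 2-fold, and all were called lower under every scaling. Each other scaling moved the median fold change of the tested genes down, which favours lower calls. That these calls were kept is therefore no check on them. The 2 largest decreases were in Hist2h2aa1, which encodes a replication-type histone H2A, and S100a4, which encodes a calcium-binding protein of motile cells, and their promoters are shown for that reason (RefSeq, GRCm38.p6, plus strand, chr3:96245247-96245546 and chr3:90603520-90603819, capitals as above).

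Hist2h2aa1: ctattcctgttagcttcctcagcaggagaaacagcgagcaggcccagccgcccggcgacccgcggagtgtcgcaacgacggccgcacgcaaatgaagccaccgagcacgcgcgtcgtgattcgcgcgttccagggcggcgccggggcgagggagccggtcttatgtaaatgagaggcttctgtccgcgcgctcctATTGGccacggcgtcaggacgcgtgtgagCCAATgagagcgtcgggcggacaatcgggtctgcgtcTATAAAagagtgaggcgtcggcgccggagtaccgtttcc
S100a4: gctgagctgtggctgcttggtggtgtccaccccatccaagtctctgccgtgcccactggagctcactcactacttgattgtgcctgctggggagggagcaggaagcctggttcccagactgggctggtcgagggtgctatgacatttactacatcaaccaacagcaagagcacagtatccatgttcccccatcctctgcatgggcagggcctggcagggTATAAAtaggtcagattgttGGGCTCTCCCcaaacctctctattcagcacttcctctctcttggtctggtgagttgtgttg

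The Hist2h2aa1 window holds CCAAT matches at -55 and -26 and TATAAA at 12 after the annotated start. The S100a4 window holds TATAAA at -31 and an NF-kB match at -11. Hist2h2aa1 measured 1118, 963, 1041 and 1090.5 normalized counts after entinostat, against 1612 to 1957 in vehicle (median 1682). The groups lay far apart relative to their spread, with a log2 fold change of -0.73 ± 0.13 (adjusted p = 0.00305). The gene has a near-identical copy, so its probe cannot be assigned to either copy. S100a4 measured 1479, 1481, 1543 and 1401 after entinostat against 1781 to 2800.2 in vehicle (median 2658), a log2 fold change of -0.72 ± 0.16 (adjusted p = 0.00769). Vehicle sample 2 was the vehicle sample nearest to the entinostat samples. Plau, the urokinase protease, measured 333, 371, 363 and 351 after entinostat against 405 to 749 in vehicle (median 513), a log2 fold change of -0.60 ± 0.18 (adjusted p = 0.0154).

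The other 4 genes with all entinostat samples below all vehicle samples were Crip1, a LIM-domain protein (5199, 4911, 5411 and 5805 against 5997 to 8174), Cd151, a tetraspanin (326, 258, 311 and 328 against 336 to 453), Eef1a1, the translation elongation factor (18663, 17357, 17669.9 and 17963 against 19690.3 to 25801), and Calr, the chaperone calreticulin (3072, 3149, 3075 and 3119 against 3371 to 4572). Their log2 fold changes were -0.42 ± 0.13, -0.39 ± 0.13, -0.35 ± 0.12 and -0.33 ± 0.11 (adjusted p = 0.0161, 0.0227, 0.0278 and 0.0212). The other 9 lower genes overlapped between the groups. Among them were Pdgfra, a PDGF receptor (-0.64 ± 0.19), and Col11a1, a minor fibrillar collagen (-0.55 ± 0.17), both from the fibroblast and matrix list. Of the 9 tested genes of that list 5 had a positive fold change, with a list median of 0.06, and Col3a1 was called higher. Met, the HGF receptor (-0.57 ± 0.19), Ptprk, a receptor phosphatase of cell contacts (-0.44 ± 0.16), and Cdh1, E-cadherin (-0.41 ± 0.15), belong to the epithelial markers. Dusp6, the phosphatase that switches off ERK, changed by -0.49 ± 0.15 and Tuba1a, an alpha-tubulin, by -0.36 ± 0.13. Rab3d, a GTPase of secretory vesicles, changed by -0.35 ± 0.14 and Mif, macrophage migration inhibitory factor, by -0.32 ± 0.12. Vehicle sample 2 was the lowest vehicle sample for 10 of the 16 lower genes. Without 1 of the 10 samples at a time, Hist2h2aa1, S100a4 and Plau kept their call in every fit, and each of the other lower genes lost it in at least 1.

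All 12 tested genes of the neutrophil granule and maturation list were called higher, against 36.2% of all tested genes, with a median log2 fold change of 1.81 against 0.50. Among the 10 of them above the limit in both groups all 10 were called. The list's median over the 12 genes was 1.28, 1.11 and 1.02 under median centring, quantile normalization and TMM, and 10 of the 12 were called under all 4 scalings. Among the receptors, Csf3r, the G-CSF receptor that drives neutrophil production, had 845, 798, 1013 and 722 normalized counts after entinostat and 151 to 570.1 in vehicle (median 221). Cxcr2, the receptor for neutrophil-attracting CXC chemokines, had 535, 608, 726 and 468 against 126 to 409 in vehicle (median 157). Neither gene overlapped between the groups, and both changed by 1.72 (SE 0.37 for Csf3r and 0.38 for Cxcr2, adjusted p = 0.00769 for each). Trem1, a receptor that amplifies inflammatory signalling, had 627, 877, 977 and 639 against 126 to 557 in vehicle (median 166), a log2 fold change of 1.80 ± 0.42 (adjusted p = 0.00796). The formyl peptide receptors that guide neutrophils to bacteria, Fpr1 and Fpr2, changed by 1.73 ± 0.43 and 1.83 ± 0.48 and were separated as well. Fpr1 was low, at 62 to 71.5 normalized counts after entinostat and 12.4 to 40 in vehicle.

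Of the granule and secreted products, S100a8 had 9359, 11186, 12607 and 6302 normalized counts after entinostat against 1641 to 7803 in vehicle (median 2078). Only entinostat sample 4 lay inside the vehicle range, whose upper end was vehicle sample 2. Mmp9, the gelatinase of tertiary granules, had 422, 476, 657 and 322 against 74.4 to 371 (median 157), a log2 fold change of 1.48 ± 0.40 (adjusted p = 0.0108). Hdc, the enzyme that makes histamine, had 471, 411, 566 and 517 against 54.9 to 304 (median 101), a log2 fold change of 2.07 ± 0.46 (adjusted p = 0.00769) with no overlap. Camp, the cathelicidin of specific granules made early in maturation, had 21.3, 53.4, 43.3 and 15.7 normalized counts after entinostat against 4.57 to 10.6 in vehicle (median 7.61). All its vehicle values and 2 of its entinostat values lay under the background limit, so that it was tested only through groups given entinostat (1.85 ± 0.50, adjusted p = 0.011). The primary granule genes Elane, Mpo and Ctsg and the collagenase gene Mmp8 were on the panel and were not tested for want of signal.

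Of 13 tested integrins, selectins and their ligands 10 were called higher and 0 lower, with a median log2 fold change of 1.61, against 36.2% higher and a median of 0.50 over all tested genes. Of these genes 5 were called under all 4 scalings, and 7 of the 9 above the limit in both groups were called higher. Under median centring, quantile normalization and TMM 2 of the 13 were called lower, beside 81, 87 and 132 of the 420 tested genes. Selplg, the selectin ligand PSGL-1, had 491, 550.0, 606 and 393 against 92.1 to 424 (median 111), a log2 fold change of 1.78 ± 0.40 (adjusted p = 0.00769). It overlapped only where entinostat sample 4 met vehicle sample 2. Itga5, a fibronectin receptor chain, had 95.7, 102, 96 and 63 against 19.1 to 54.1 (median 23.6) and was separated, at 1.61 ± 0.39 (adjusted p = 0.008). The chains of the beta-2 integrins changed by 1.61 ± 0.49 for Itgal, 1.26 ± 0.41 for Itgam, 1.43 ± 0.45 for Itgax and 1.31 ± 0.45 for Itgb2, and their ligand Icam1 by 1.64 ± 0.55. These 5 genes were called with the deposited scaling and not under all 4.

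NF-kB subunits, feedback inhibitors and targets were called higher in 13 of 17 tested members and lower in 0, with a median log2 fold change of 1.35, against 36.2% higher and a median of 0.50 over all tested genes. Under all 4 scalings 7 held, and 12 of the 16 above the limit in both groups were called higher. Under median centring and under TMM 1 of the 17 was called lower, beside 81 and 132 of the 420 tested genes. Tnfaip3, the ubiquitin-editing enzyme A20 that shuts NF-kB off, had 2939, 4586, 4502 and 3148 normalized counts after entinostat against 685 to 2956 in vehicle (median 1067). The overlap was between entinostat sample 1 and vehicle sample 2 only, and the log2 fold change was 1.60 ± 0.39 (adjusted p = 0.008). Il1b, the cytokine interleukin 1 beta, had 10650.5, 14776, 16955 and 12378 against 2369 to 11618 (median 3754), a log2 fold change of 1.67 ± 0.40 (adjusted p = 0.00796). Tnf had 1199.5, 1611, 1639 and 1135 against 214 to 1182 (median 433), a log2 fold change of 1.55 ± 0.45 (adjusted p = 0.0151). Birc3, an inhibitor of apoptosis, and Ikbke, a kinase of interferon and NF-kB signalling, were separated, at 1.63 ± 0.45 and 1.28 ± 0.35. The inhibitors Nfkbia (1.12 ± 0.30) and Nfkbiz (1.09 ± 0.29) were called with the deposited scaling. Nfkb1, the p105 subunit itself, was not called, at 253, 341, 262 and 234 normalized counts after entinostat against 166 to 245 in vehicle (log2 fold change 0.40 ± 0.18, adjusted p = 0.0763), and its sign turned under each other scaling.

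In the interleukin-1 family and inflammasome list 5 of 7 tested genes were called higher, against 36.2% of all tested genes, and 4 of the 6 above the limit in both groups. Beside Il1b these included Il1a (1.24 ± 0.46), the receptor antagonist Il1rn (1.27 ± 0.48) and the inflammasome sensor Nlrp3 (1.39 ± 0.51), all with overlapping groups. These calls were lost in 6, 7 and 8 of the 10 fits that left out a sample. Of 27 chemokines on the panel 13 were tested and 6 were called higher, a share close to the 36.2% of all tested genes, and 0 of them under all 4 scalings. Above the limit in both groups 5 of 10 were called higher. Cxcl2, a ligand of Cxcr2, had 2633, 3493, 4447 and 2559 normalized counts after entinostat against 763 to 3807 in vehicle (median 1058), a log2 fold change of 1.41 ± 0.46 (adjusted p = 0.0213). Cxcl3, from the same ligand family, had 101, 90.5, 105 and 96.7 against 22.8 to 85.8 (median 29.9), a log2 fold change of 1.51 ± 0.44 (adjusted p = 0.0154), and was separated. Cxcl1, another Cxcr2 ligand, was not called, at 2424, 3279, 3952 and 2075 against 1259.7 to 3022 (0.70 ± 0.32, adjusted p = 0.0871). Of the monocyte-attracting chemokines, Ccl8 varied most, with 687, 1884, 540.1 and 146 normalized counts after entinostat against 32.9 to 597 in vehicle (median 67.1). Its log2 fold change of 2.63 ± 0.97 (adjusted p = 0.0387) lost its call in 7 of the 10 fits that left out a sample. Ccl7 changed by 2.07 ± 0.70, Ccl4 by 1.50 ± 0.41 and Ccl3 by 1.37 ± 0.50. Ccl7 lost its call in 5 of those fits, Ccl3 in 7, Cxcl2 in 2 and Ccl4 in 0. Among the receptors Ccr1 (1.53 ± 0.40) and the complement C5a receptor C5ar1 (1.71 ± 0.45) were called under all 4 scalings, and the chemerin-binding receptor Ccrl2, at 3572, 5755, 6649 and 4011 against 1154 to 5005, under the deposited scaling (1.42 ± 0.42). The epithelial and endothelial chemokine Cx3cl1 had a fold change of the opposite sign that did not pass (-0.38 ± 0.17, adjusted p = 0.0871).

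Of 9 tested Toll-like, NOD and C-type lectin receptors with adaptors 6 were called higher, against 36.2% of all tested genes, with a median log2 fold change of 1.22 against 0.50. Above the limit in both groups 6 of 7 were called higher. Called under all 4 scalings were 3 of them. These were Myd88, the adaptor of most Toll-like receptors (232, 353, 399 and 328 against 84.1 to 243, log2 fold change 1.38 ± 0.32), Clec7a, the beta-glucan receptor Dectin-1 (532, 573, 574 and 373 against 88.5 to 394, 1.67 ± 0.45), and Tlr13, a sensor of bacterial ribosomal RNA (1.45 ± 0.39). Tlr6 and Tlr4 changed by 1.12 ± 0.27 and 1.22 ± 0.32, and Tlr2 by 1.09 ± 0.40. The call of Tlr2 was lost in 7 of the 10 fits that left out a sample, and those of Tlr6 and Tlr4 in 0. Tlr3, which senses double-stranded RNA, was at 67.3, 65, 37.6 and 63 against 45.8 to 94.4 and did not pass (-0.33 ± 0.21, adjusted p = 0.209). Of 10 tested Fc receptors and ITAM signalling genes 7 were called higher, against 36.2% of all tested genes, and 4 under all 4 scalings. Their median log2 fold change was 1.30, and 5 of the 7 above the limit in both groups were called higher. Syk, the kinase that reads ITAM motifs, had 462, 478, 465 and 409 normalized counts after entinostat against 81.5 to 342 in vehicle (median 107), without overlap (1.68 ± 0.42, adjusted p = 0.00911). Tyrobp, the ITAM adaptor DAP12, had 1715, 1987, 2038 and 1239 against 336 to 1512 (1.55 ± 0.45, adjusted p = 0.0144). Btk, a kinase downstream of Syk, changed by 1.76 ± 0.53, and the Fc receptors Fcgr3 and Fcgr4 by 1.23 ± 0.40 and 1.25 ± 0.38. Pik3cg, the PI3-kinase that neutrophils use in chemotaxis, was near the limit of 29.3, at 28.4, 30.2, 35.8 and 33.7 after entinostat, and below it in vehicle, at 7.8 to 18.9, and was tested only through groups given entinostat (1.34 ± 0.33, adjusted p = 0.00904). Fyn, a kinase of many tissues, did not pass (-0.24 ± 0.11, adjusted p = 0.084).

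In the interleukin-6 family, JAK-STAT and C/EBP list 9 of 15 tested genes were called higher, against 36.2% of all tested genes, and 8 of the 14 above the limit in both groups. The list had a median log2 fold change of 0.66, against 0.50 over all tested genes, that became -0.02 with TMM. Il6ra, the ligand-binding chain of the interleukin-6 receptor, had 198, 172, 213 and 162 normalized counts after entinostat against 38.1 to 121 in vehicle (median 60), a separated difference of 1.44 ± 0.36 (adjusted p = 0.00928). Cebpb, the factor of emergency granulopoiesis, had 2121, 2339, 2836 and 1943 against 927 to 1930.0 (median 1067), also separated, at 0.99 ± 0.22 (adjusted p = 0.00769). The feedback inhibitor Socs3 changed by 1.27 ± 0.40. Stat3, the factor downstream of interleukin 6, differed little, at 812, 866, 774 and 782 against 554 to 774, and its call (0.33 ± 0.11, adjusted p = 0.0218) turned in sign under each other scaling. Of 6 tested interferon signalling and response genes 4 were called higher, against 36.2% of all tested genes, and 0 under all 4 scalings. Irf1, Ifngr1 and Isg15 changed by 0.97 ± 0.27, 0.73 ± 0.19 and 0.91 ± 0.29.

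Of 10 tested co-stimulatory and checkpoint ligands 3 were called higher, a share close to the 36.2% of all tested genes, namely Icosl above, Cd80 and Sirpa. Cd80, the B7 ligand shared by CD28 and CTLA-4, had 147, 128, 179 and 162 normalized counts after entinostat against 28.6 to 107 in vehicle (median 41.5), a separated difference of 1.69 ± 0.39 (adjusted p = 0.00796) that held under all 4 scalings. Its relative Cd86 was not called, at 49.6, 99.8, 73.4 and 83.2 against 15.1 to 82.4 (0.97 ± 0.56, adjusted p = 0.165). Cd274, the ligand PD-L1, had 438, 392, 365 and 198 against 53.1 to 423 (median 88.4) and was not called (1.56 ± 0.65, adjusted p = 0.0616). Of 7 tested genes of MHC class I loading and the immunoproteasome, 0 were called higher and 1, Calr, lower, against 36.2% and 3.81% of all tested genes. The transporter Tap1 (0.58 ± 0.26) and the immunoproteasome subunit Psmb8 (-0.26 ± 0.19) did not pass, and of 4 MHC class II genes 0 were called. Cd74, the invariant chain, ranged widely in both groups, with 1079, 1873, 901 and 382 against 158 to 3034 (0.67 ± 0.86, adjusted p = 0.523).

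Of 9 tested suppressive effectors 5 were called higher, against 36.2% of all tested genes, and 0 under all 4 scalings, and the median log2 fold change of 0.50 equalled that of all tested genes and was negative under the other scalings. Ptgs2, the inducible cyclooxygenase, had 1832, 3286, 3799.7 and 2224 normalized counts after entinostat against 592 to 2732 in vehicle (median 826), a log2 fold change of 1.34 ± 0.42 (adjusted p = 0.0204). Vegfa changed by 0.45 ± 0.17 (adjusted p = 0.0479) with a sign that turned under each other scaling. Arg1, which degrades arginine, had 31.9, 81.2, 71.5 and 40.5 against 23 to 116 and was not called (0.05 ± 0.49, adjusted p = 0.938). Among lipid mediator genes the constitutive cyclooxygenase Ptgs1 (0.60 ± 0.18), the leukotriene enzyme Alox5 (1.33 ± 0.41) and the prostaglandin E2 receptor Ptger2 (1.55 ± 0.49) were called with the deposited scaling.

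The deacetylase gene Hdac3 served as a housekeeping gene on the panel and was not tested, and its levels of 175, 183, 198 and 198 normalized counts after entinostat all lay below the 210.4 to 282 of vehicle. Of 6 tested histone, deacetylase and chromatin genes 1, Hist2h2aa1, was called lower and 0 higher, against 3.81% and 36.2% of all tested genes. Hdac5, a class IIa deacetylase, was not called, at 136, 162, 158 and 92.2 against 63.8 to 178 (0.24 ± 0.24, adjusted p = 0.411), and neither was the linker histone gene Hist1h1c, at 705, 747, 799.8 and 641 against 790.4 to 927 (-0.28 ± 0.13, adjusted p = 0.084). Of 6 cell cycle and replication genes 1 was called higher, against 36.2% of all tested genes, the cyclin-dependent kinase inhibitor Cdkn1a (p21), a gene that histone deacetylase inhibitors are known to raise in many cell lines. It had 714, 965, 1149.9 and 794 normalized counts after entinostat against 365 to 815 in vehicle (median 430.4), a log2 fold change of 0.88 ± 0.23 (adjusted p = 0.0104). Under median centring and under TMM 0 genes of that list were called higher, so the call of Cdkn1a was lost there. Entinostat samples 1 and 4 overlapped with the highest vehicle sample. Of the 20 housekeeping genes 13 had a negative and 7 a positive mean difference, with all entinostat samples below all vehicle samples for 3 and above for 2.

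**Figure D4:**
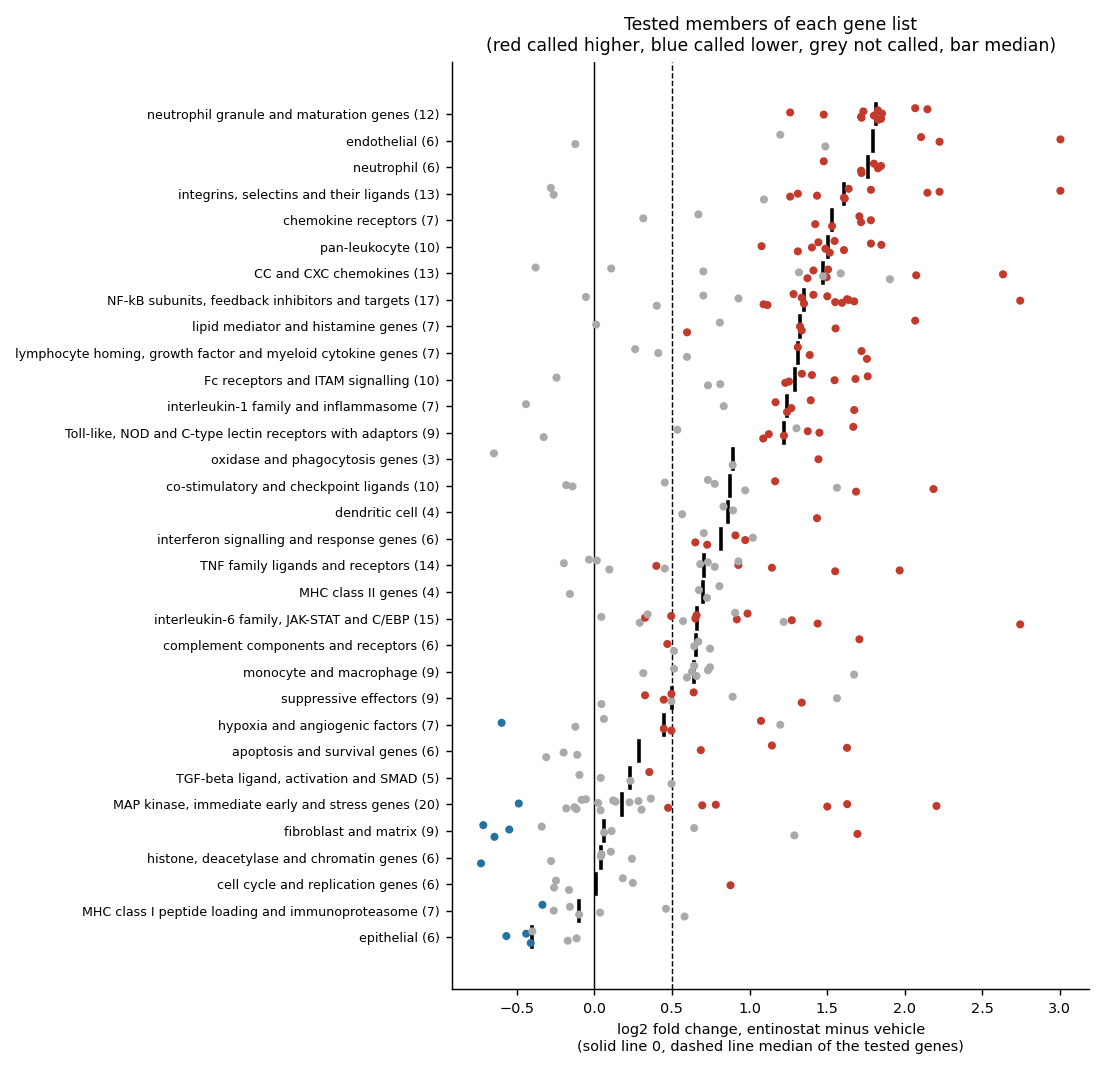
Log2 fold change, entinostat minus vehicle, of every tested gene in each list with at least 3 tested members (number in brackets), with black bars at the list medians, the solid line at 0 and the dashed line at the median of all tested genes, 0.50. Neutrophil and adhesion lists lie to the right of the dashed line (medians 1.81 and 1.61), and the epithelial list, at -0.40, to the left of 0.

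The pan-leukocyte and epithelial marker lists differed between the groups in opposite directions. All 10 tested pan-leukocyte genes were called higher, against 36.2% of all tested genes (median fold change 1.50 on the log2 scale, against 0.50), and 8 of the 8 above the limit in both groups. One of them was Ptprc, the common leukocyte antigen CD45, at 905, 1054, 1086 and 816 normalized counts after entinostat against 187 to 739 in vehicle (1.52 ± 0.36, adjusted p = 0.00796). The summed level of the pan-leukocyte list was 5176, 6236, 6248 and 4268 after entinostat and 1039, 4622, 3015, 1470, 1437 and 1320 in vehicle samples 1 to 4, V1 and V2. Of 6 epithelial markers 3 were called lower and 0 higher, against 3.81% and 36.2% of all tested genes, with a median of -0.40, and their sum was 2121, 2014, 2091 and 2347 after entinostat against 3160, 2095, 2524, 2988, 3294 and 2783 in vehicle. Vehicle sample 2 was thus the highest vehicle sample in leukocyte genes and the lowest in epithelial genes, near the entinostat samples in both. The neutrophil markers summed to 29234, 34644, 40173 and 20553 after entinostat and 7467, 24305, 11171, 5700, 5948 and 5678 in vehicle, in the same sample order. With the mean epithelial level as a covariate 0 genes were called by limma (41 had an unadjusted p under 0.05). In that fit the fold changes of all 152 higher genes stayed positive with a median of 0.59 and those of all 16 lower genes stayed negative with a median of -0.26. The covariate is the mean of the 6 epithelial markers, 3 of which are among the 16 lower genes, and it ran lower after entinostat. The fit therefore cannot separate cell content from treatment. What part a differing cell content had in the fold changes was not tested.

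Of 9 tested monocyte and macrophage markers 0 were called, against 40% of all tested genes, all with positive fold changes (median 0.64) that were negative at the median with TMM, and the sum of the list ran from 1108 to 3611 after entinostat and from 593 to 3596 in vehicle. Of 9 fibroblast and matrix genes 1 was called higher and 3 lower, against 36.2% and 3.81%. Of 6 endothelial markers 3 were called higher, against 36.2% of all tested genes, and the single one above the limit in both groups, Flt1, was not called. Siglecf, a lectin of eosinophils that some tumour neutrophils also carry, had 443, 594, 646 and 445 normalized counts after entinostat against 107 to 401 in vehicle (median 174), without overlap (1.44 ± 0.34, adjusted p = 0.00796). Of the T and NK cell markers 1 was above the test limit and not called, and the single B-cell and erythroid markers had at most 9.28 and 9.41 normalized counts in any sample.

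**Figure D5:**
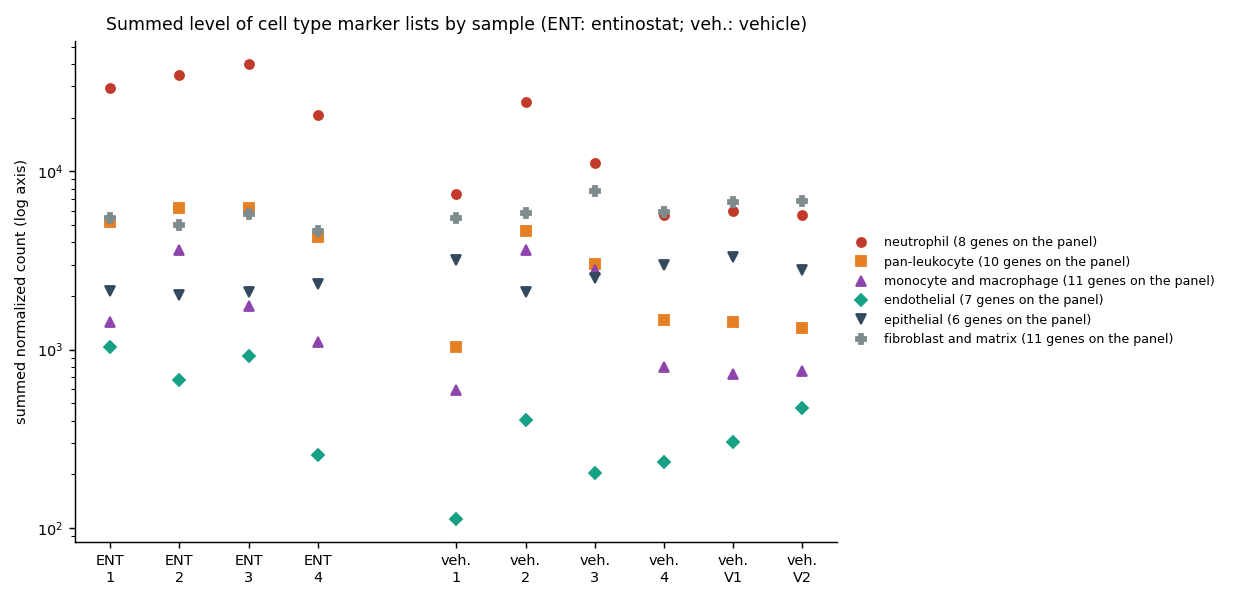
Summed normalized counts (log axis) of 6 cell type marker lists in the 4 entinostat samples and the 6 vehicle samples. Neutrophil sums run from 20553 to 40173 after entinostat and from 5678 to 24305 in vehicle, where sample 2 is highest; epithelial sums run from 2014 to 2347 and from 2095 to 3294.

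Cartridge was partly shared with the groups. On cartridge 1 alone, 4 entinostat samples were compared with 3 vehicle samples. The combination samples of that cartridge stayed in the fit and entered its estimate of the spread. There 134 genes were called (129 higher and 5 lower), and 120 of the 168 genes were called in the same direction. All 152 higher genes remained positive there, with a median log2 fold change of 1.32, and all 16 lower genes negative, with a median of -0.39. With cartridge as a block in the fit of all samples, 161 genes were higher and 8 lower. Vehicle samples V1 and V2 differ from the numbered vehicle samples in a way that the labels do not state. Without both, 54 genes were called (51 higher and 3 lower), all among the 168.

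The promoter windows of the called genes were scanned for the same motifs. An NF-kB match lay in 31.2% of 154 windows of 123 higher genes and in 53.3% of 15 windows of 14 lower genes, against 32.7% of the windows of tested genes and 20.7% of all 32851 windows in the RefSeq table. The share in higher genes was thus that of the tested genes. An AP-1 match lay in 17 of the 154 windows of higher genes (11.04%) and 6.67% of those of lower genes, against 7.47% of tested genes and 7.81% of all. TATAAA lay in 22.1% and 20% of windows of higher and lower genes, against 17.8% of tested genes and 13.6% of all. CCAAT lay in 28.6% and 33.3%, against 32.7% and 37.4%. In the 50 windows of 45 genes higher under all 4 scalings the AP-1 share was 16% (8 windows) and the TATAAA share 34% (17 windows). The NF-kB share there was 32% and the CCAAT share 34%.

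Entinostat alone was also set against the groups that received an antibody with it. These comparisons use the same entinostat samples as the comparison with vehicle. Against entinostat plus anti-PD-1, 0 of the 420 genes (0%) were called by limma, with an unadjusted p under 0.05 for 7, and 0 were called with median centring or quantile normalization. Against entinostat plus anti-CTLA-4, 203 genes (48.3%) were called, 179 higher (42.6%) and 24 lower (5.71%) in entinostat alone. All samples of entinostat alone were run on cartridge 1 and all of entinostat plus anti-CTLA-4 on cartridge 2, so cartridge and treatment cannot be told apart in that comparison. Of the triple combination samples 3 of 4 also lay on cartridge 2. A single sample name stands over 2 columns of entinostat plus anti-CTLA-4 in the deposited table, and the same holds for 2 columns of the triple combination, so that 3 distinct names lie behind each of these groups of 4. The first such anti-CTLA-4 column stood apart from its group, with a chi-square over its degrees of freedom of 81.9 to 134.6 against the other 3 samples, which differed from each other by 6.88 to 14.2. Without it 266 genes were called, 230 higher and 36 lower, and these held all 203. Against the triple combination 0 genes (0%) were called by limma, with an unadjusted p under 0.05 for 53, and 3 were called with quantile normalization. Triple combination sample 2 had the lowest depth, 23296 barcode counts, with 9.78 normalized counts per barcode count and negative controls averaging 28.1 on the normalized scale, near the background limit. Without it 0 genes were called by limma, with an unadjusted p under 0.05 for 45. Both of these samples were left out after the data had been seen. The calls against anti-CTLA-4 split into 104 higher and 121 lower after median centring.

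Il17ra averaged 223 ± 37.4 normalized counts in entinostat alone, 208 ± 17.8 with anti-PD-1, 109.6 ± 38.9 with anti-CTLA-4 and 139 ± 2.61 in the triple combination (SD, n = 4 each, with the repeated names above). Without the anti-CTLA-4 sample that stood apart the mean there was 90.5 ± 8.93 (n = 3). The difference between entinostat alone and entinostat plus anti-PD-1 did not pass for this gene (log2 difference 0.09 ± 0.19, limma adjusted p = 0.971), while the difference from anti-CTLA-4 was 1.06 ± 0.19 (adjusted p = 0.00257). Jak3 averaged 176 ± 9.96, 139 ± 18.4, 78.5 ± 18.6 and 97.6 ± 18.2 in the same order. Its difference was 1.18 ± 0.18 from anti-CTLA-4 (limma adjusted p = 0.00142) and 0.86 ± 0.18 from the triple combination, which did not pass (adjusted p = 0.0653). Hist2h2aa1 was lowest in entinostat alone, at 1053 ± 68.0, against 1477 ± 64.1 with anti-PD-1, 1754 ± 326 with anti-CTLA-4 and 1397 ± 234 in the triple combination. Of its differences of -0.49 ± 0.15, -0.72 ± 0.15 and -0.39 ± 0.15, only that from anti-CTLA-4 was called (limma adjusted p = 0.971, 0.00257 and 0.34). Without the anti-CTLA-4 sample that stood apart the differences from anti-CTLA-4 were 1.28 ± 0.16 for Il17ra, 1.30 ± 0.19 for Jak3 and -0.86 ± 0.13 for Hist2h2aa1, all called. Without triple combination sample 2 the differences from that group were 0.66 ± 0.21, 0.76 ± 0.19 and -0.33 ± 0.16 in the same order, and 0 of the 3 were called.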

How the data were processed

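Total RNA of G-MDSCs was measured with the NanoString mouse myeloid panel after Ly6G-positive magnetic selection over 2 column passes, per the labels' protocols. The deposited values are normalized counts (a linear signal). The sources used here do not state the authors' normalization steps, and the submitters' processing notes name limma only, with no version given. In every sample 100% of gene values up to 200 were whole multiples, within 0.1, of a fixed step, which gave back barcode counts used for depth and for edgeR 4.0.16 and DESeq2 1.42.0 as alternatives. All 22 samples were fitted as 5 group means with limma 3.58.1 in R 4.3.3 on log2(normalized count + 1), with 17 residual degrees of freedom and Benjamini-Hochberg adjustment over 420 genes. A gene was left out (235 genes) when no group mean on the log2 scale exceeded the negative controls' mean + 2 SD. Columns were matched to groups by their names, and 0 columns of values were left unused.

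The members, the 37 gene lists and the rule for named genes were chosen with earlier results of these data known. Under that rule genes were taken from the called genes with the largest changes, the smallest p in each list, agreement over 4 scalings, the highest level, the clearest separation and a fixed set. Some genes that the rule picks are not reported here. Genes were named by the symbols of the deposited table. Of 675 symbols 665 were found in the mouse RefSeq table, which also gave the promoters. Lists are described by counts and medians only. Every pair of samples within a group differed by more than sampling noise (chi-square over its degrees of freedom at least 2.72). On simulated data for entinostat against vehicle with 420 genes, limma called 67% of the genes simulated with a log2 difference of 1 and 95% of those with 2, with 2 false calls of 164. The simulation drew genes independently, with as many increases as decreases and no shift shared by the genes of a sample. Samples did shift as a whole in the data, so these figures do not give the error rate of the calls here. Alternatives were scaling, count tests, pseudocount, filters, samples left out, sample weights, cartridge, replicate number, an epithelial covariate and background subtraction, and, chosen after seeing the data, 1 sample left out of each of 2 combination groups.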

Additional observations from a re-analysis of the deposited data

Results flagged for a closer look

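Over the 115 genes given with values, 15 of 230 groups had 1 sample whose gap to its neighbour took up most of the group's range (Dixon's test at 95%). Chance marks about 1 group in 20. Vehicle sample 2 accounted for 8 of them. It was the lowest vehicle sample for Pdgfra (206.9 normalized counts), Met (98.73), Cdh1 (782.8) and Rab3d (84.63), and the highest for Il17ra (145.8), Cxcr2 (409), Cxcl2 (3807) and Cxcl3 (85.8). Entinostat sample 4 accounted for 4, being the lowest entinostat sample for Gem (40.47), Cav1 (123.7), Itga5 (62.96) and Tlr2 (105.7). The remaining ones were Ikbke in entinostat sample 1 (93.91, lowest), Tlr3 in entinostat sample 3 (37.64, lowest) and Psmb8 in vehicle sample 3 (478.8, highest).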

How the results depend on the processing

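The 168 calls against vehicle became 0 with the epithelial mean as a covariate, 54 without vehicle samples V1 and V2 and 298 with sample weights, and ran from 80 (without entinostat sample 3) to 207 (without vehicle sample 2) with 1 sample left out. Each of these settings other than the weights uses fewer samples or an added term. The replicate block gave 100 calls on the numbered samples. Samples with the same number correlated at -0.04, 0.49, 0.0048 and 0.41, so the numbers were not taken as pairs. DESeq2 split its calls into 80 higher and 107 lower. Calls against anti-CTLA-4 ran from 134 to 213 with an entinostat sample left out and numbered 266 without the anti-CTLA-4 sample that stood apart, and against the triple combination quantile normalization gave 3. Of the 115 genes given with values 106 kept their sign throughout, and of the 102 called ones 55 kept their call with each sample left out in turn. Signs turned for Nfkb1 (-0.15 with DESeq2, -0.28 with TMM, -0.14 centred, -0.19 quantile) and Stat3 (-0.23, -0.35, -0.21 and -0.20 in that order). They also turned, in that order, for Vegfa (-0.11, -0.24, -0.092 and -0.15) and Hdac5 (-0.31, -0.46, -0.30 and -0.34, and -0.11 with the covariate). Median centring moves every fold change down by the same amount, and under the other settings the cause was not tested. With TMM the values were -0.0035 for Cxcl1, -0.050 for Ptgs1, -0.11 for Tap1 (-0.056 quantile) and -0.47 for Cd74 (-0.32 with DESeq2, -1.21 with the covariate). Arg1 changed by -0.57 with DESeq2, -0.71 with TMM, -0.093 with lane factors, -0.13 after background subtraction, -0.73 with the covariate, -0.49 centred, -0.67 quantile, -0.022 under the replicate block and without V1 and V2, and from -0.18 to 0.28 with 1 sample left out. Low counts limit genes near 29.3 normalized counts.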
